A study of Mus musculus with 2 samples.

Results

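The genes described here are the developmental homeobox genes of the mouse, taken by symbol: the Hox, Dlx, Nkx, Irx, Meis, Msx, Gbx, Pitx, Emx and Pbx genes, Six4 and its relatives, Pax1 to Pax9, Isl1 and Isl2. The rule matched 99 of the 18032 genes in the deposited table, and all 99 were annotated as protein-coding. Polyadenylated RNA was sequenced from a pair of wild-type mouse cell populations, with 1 library each. The cEpiSC library came from epiblast stem cells made in vitro: embryonic stem cells from 2iLIF were plated on fibronectin, kept in 2iLIF for 24 h, and then moved for 2 days to N2B27 with activin A (20 ng/ml) and FGF2 (12 ng/ml). The mESC library came from cells of the E14TG2a line held in 2iLIF, which is N2B27 with the MEK inhibitor PD0325901 (1 µM), the GSK3 inhibitor CHIR99021 (3 µM) and the cytokine LIF (100 units/ml). N2B27 was common to both, and the medium and the state changed together, so their shares in any difference cannot be told apart.

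Homeobox genes encode transcription factors that bind DNA through a homeodomain and fix position and cell identity in the embryo. The set here was taken by symbol, and whether each member, the Pax genes included, carries a full homeodomain was not checked. The Hox genes lie in 4 clusters, Hoxa to Hoxd, and their order along the cluster follows the body axis: low-numbered genes act towards the head and high-numbered genes towards the tail. Pbx and Meis proteins carry a homeodomain of the TALE class and bind DNA together with Hox proteins, while the families of Six4, Pax, Nkx, Irx, Dlx, Msx, Gbx, Pitx, Emx and Isl genes pattern sense organs, neural tube, gut, limbs and heart. In pluripotent cells many of these genes sit in chromatin held by Polycomb proteins and are transcribed at low levels. The comparison sets the primed state, which activin A and FGF2 promote, against the naive state, which 2iLIF maintains.

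The libraries held 19956746 counts (cEpiSC) and 19843745 counts (mESC). The state markers followed the labels: all 6 primed markers were higher in cEpiSC, among them Fgf5 with 276 counts in cEpiSC and 0 in mESC, and 4 of 6 naive markers were lower, among them Klf4 with 80.2 CPM in cEpiSC and 313 CPM in mESC. Otx2, Dnmt3b and the homeobox gene Pou3f1 were at 272, 280 and 47.0 CPM in cEpiSC, against 40.4, 50.4 and 0.517 CPM in mESC, while Esrrb was at 375 CPM in cEpiSC and 830 CPM in mESC. The core pluripotency genes Pou5f1 (log2 ratio 0.13) and Sox2 (0.26) were within 2-fold. CPM here are counts scaled to library size after TMM adjustment. A log2 ratio is cEpiSC over mESC with a prior count of 2, and higher or lower means a ratio past 2-fold in size. With 1 library per state there is no replicate check and no test. Brackets give the exact 95% interval of the ratio, for counting error only, and copies made by PCR are not independent molecules, and the protocol names no molecular identifiers. Fewer cells of a type and less RNA per cell cannot be told apart in these bulk libraries.

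Of the 99 homeobox genes, 43 reached 1 CPM in at least 1 library, which is 43.4% of them against 73.4% of all listed genes. The other 56 held at most 19 counts in either library, 32 of them held 3 counts or fewer in both, and 13 had 0 counts in both, as did 6.47% of all genes: Dlx5, Hoxb5, Hoxb6, Hoxd12, Irx4, Irx6, Nkx1-1, Nkx2-1, Nkx2-6, Nkx3-2, Nkx6-1, Pax3 and Pax4. All members together took 8004 counts (0.0401% of the library) in cEpiSC and 6226 counts (0.0314%) in mESC. Homeobox transcripts of these families were thus a very small share of the RNA in both states.

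Among the 43 genes past the filter, 14 were higher, 16 were lower and 13 were within 2-fold in cEpiSC. Of all 13243 genes past the filter, 13.6% were higher, 9.25% were lower and 22.8% were past 2-fold in either direction. The homeobox count has a built-in part: 8 genes passed through the cEpiSC library alone and 14 through the mESC library alone, and the filter takes in a gene with a low level in one library only if its level in the other is higher. Among the 21 homeobox genes at 1 CPM or more in both libraries, 8 were higher, 5 lower and 8 within 2-fold, where 16.2% of all such genes were past 2-fold. Where the interval had to lie wholly beyond 2-fold, 10 were higher and 13 lower, beside 9.14% and 6.35% of all genes. The median log2 ratio of the 43 genes was -0.55, against -0.02 over all genes. It was -1.72 for the 17 Hox genes past the filter and 0.36 for the 26 genes of the other families, so the medians lay on opposite sides of 0. The filter bears on both medians: 8 of the 17 Hox genes passed through the mESC library alone and 2 through the cEpiSC library alone. Of the 7 Hox genes at 1 CPM or more in both libraries, 0 were higher, 3 lower and 4 within 2-fold, against 8 higher, 2 lower and 4 within 2-fold of 14 genes of the other families. Of the 43 genes, 38 are described singly here, of which 10 were higher, 16 lower and 12 within 2-fold.

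**Figure D1:**
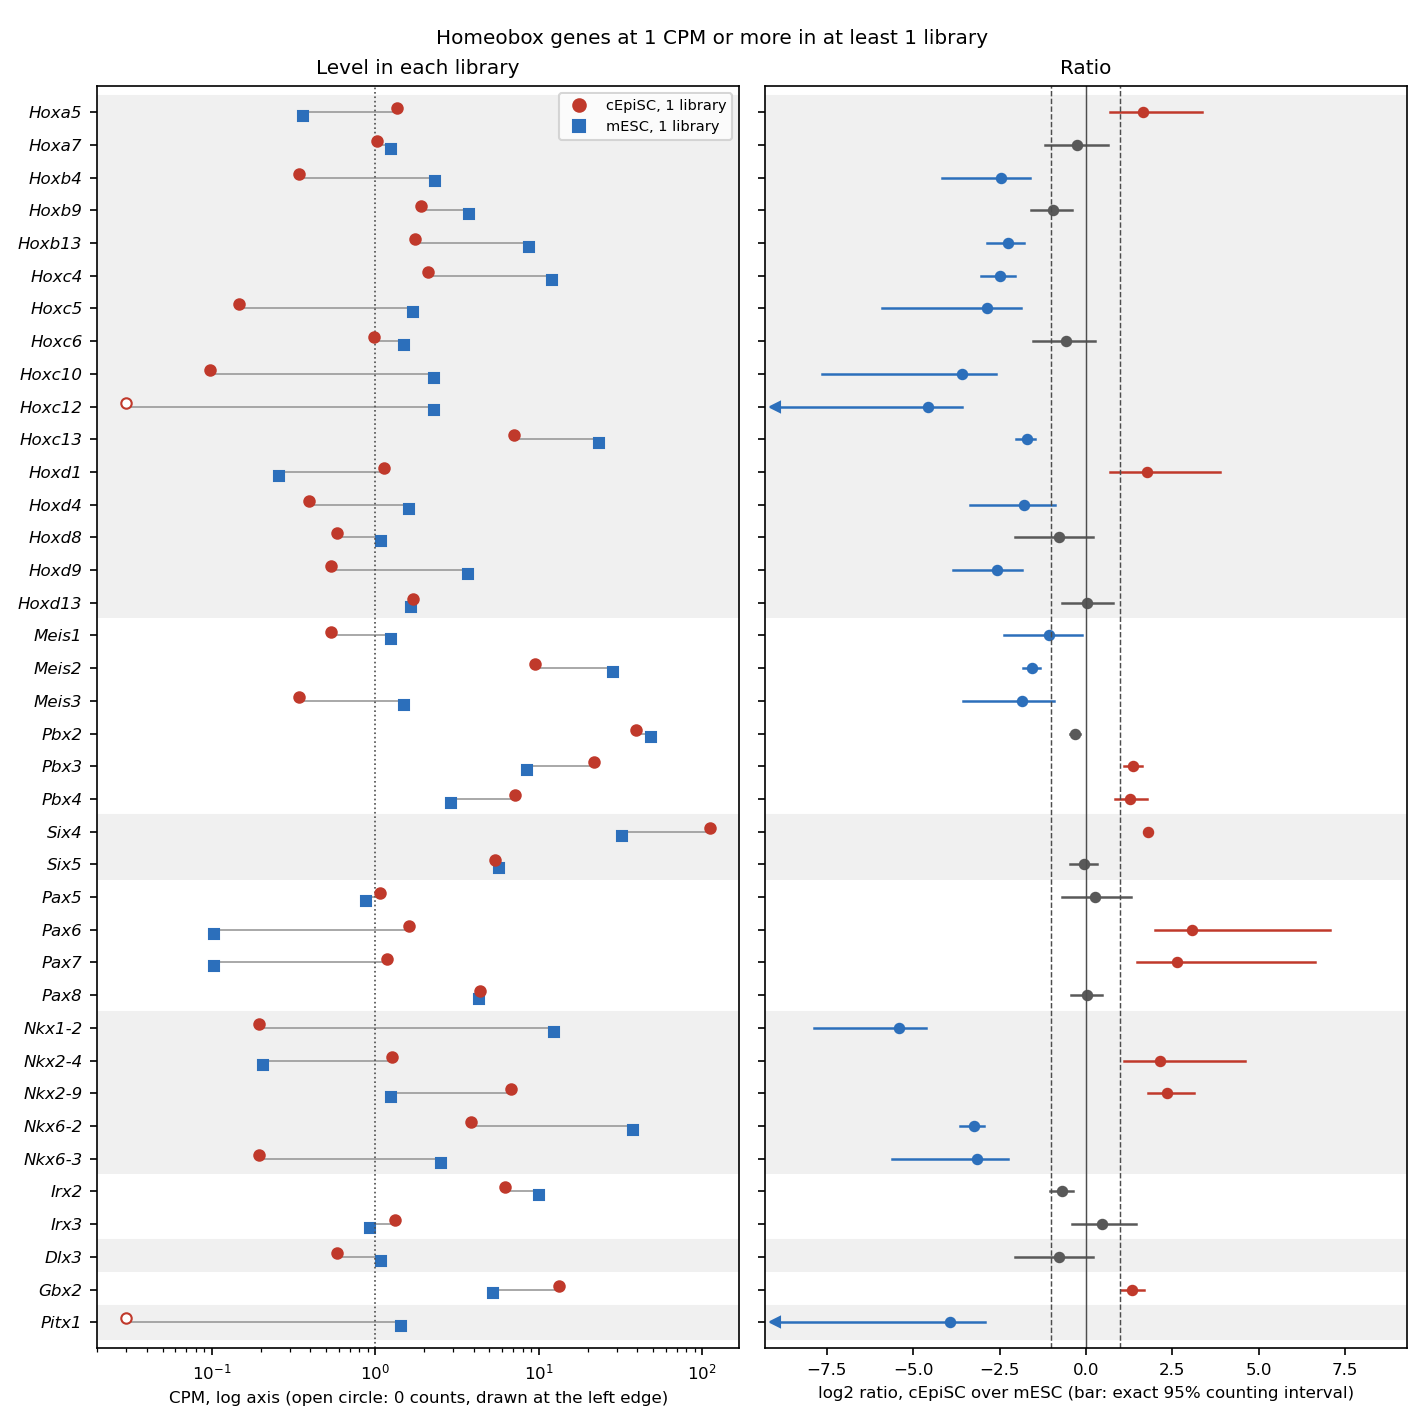
Levels of 38 homeobox genes past the filter of 1 CPM (left, CPM on a log axis, circles for cEpiSC and squares for mESC, 1 library each) and their log2 ratio with exact 95% counting intervals (right, dashed lines at 2-fold). Six4, Nkx2-9 and Gbx2 lie to the right, and Nkx1-2, Nkx6-2 and most Hoxc genes to the left.

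**Figure D2:**
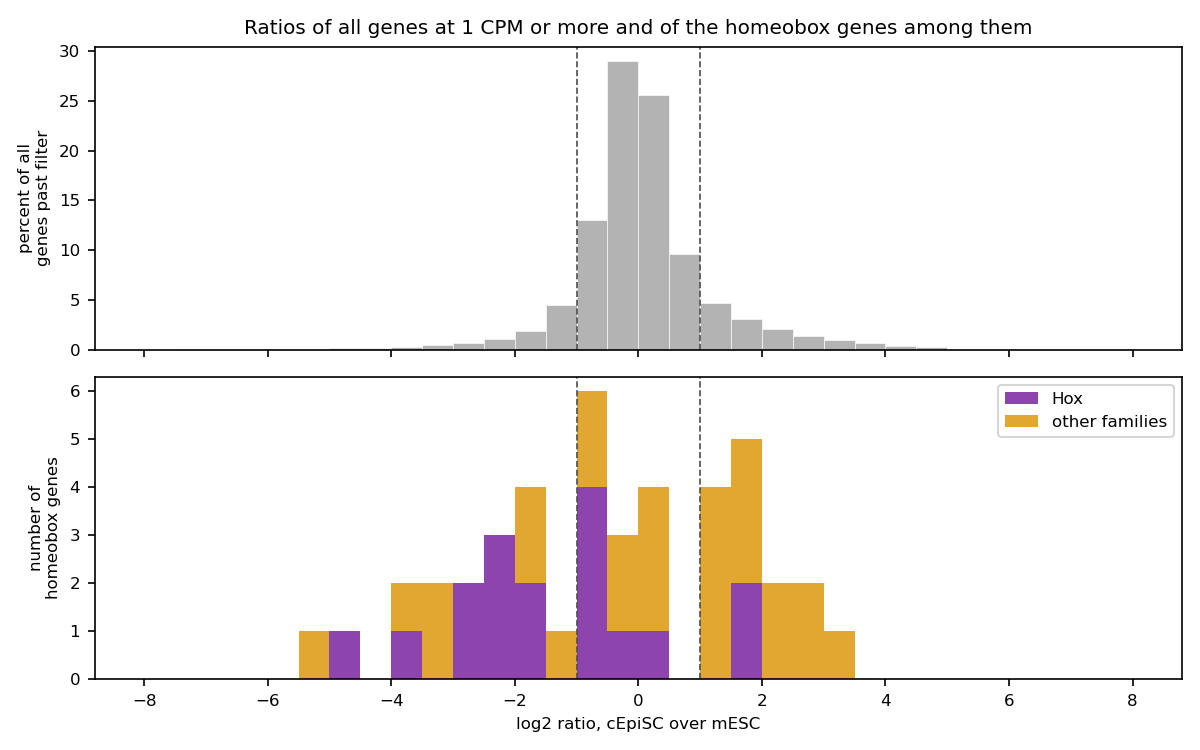
Log2 ratio of cEpiSC over mESC for all 13243 genes past the filter (top, percent of genes per bin) and for the 43 homeobox genes (bottom, number of genes per bin, Hox genes and other families stacked). Of the 17 Hox genes, 9 lie below the lower dashed line at 2-fold and 2 above the upper one.

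The Hox genes were lower in cEpiSC as a sum, but not gene by gene: 25 had a higher CPM in mESC and 11 in cEpiSC. Over all listed genes, 8134 had a higher CPM in mESC and 8732 in cEpiSC. The Hox tally takes in genes at the floor, where as little as 1 count sets the direction. Their 39 members summed to 611 counts (29.9 CPM) in cEpiSC and 1546 counts (79.9 CPM) in mESC, 2.68-fold lower, with a log2 ratio of the sums of -1.42 [-1.56 to -1.28]. Much of that difference lay in Hoxc13, Hoxc4 and Hoxb13, with 145, 43 and 36 counts in cEpiSC and 455, 235 and 168 in mESC. Of the 17 past the filter, 9 were lower, 2 higher and 6 within 2-fold. The filter bears on that split, since 8 of the 17 passed through the mESC library alone. Of the 7 at 1 CPM or more in both libraries, 0 were higher, 3 lower and 4 within 2-fold. The 22 others were below the filter. The sums differed by cluster. Hoxc was at 216 counts in cEpiSC and 863 in mESC, 4.23-fold lower (-2.08 [-2.30 to -1.86]), and Hoxb at 91 counts in cEpiSC and 297 in mESC (-1.79 [-2.14 to -1.44]). Hoxd was at 93 counts in cEpiSC and 171 in mESC (-0.96 [-1.34 to -0.59]). Hoxa was at 211 counts in cEpiSC and 215 in mESC, a log2 ratio of -0.11 whose interval of -0.39 to 0.17 includes 0.

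By position along the clusters, the central and posterior sums were lower and the anterior sum was not set apart from 0 by counting error. Position is mixed with cluster here. Hoxc, the cluster with the largest difference, has no gene in groups 1 to 3, so all its 863 counts in mESC fall in the central and posterior sums. The anterior genes, paralogue groups 1 to 3, summed to 149 counts in cEpiSC and 164 in mESC (-0.22 [-0.55 to 0.11]). Most of these counts came from 1 gene that is not described singly. Without it the log2 ratio of the anterior sum was 0.76 [0.08 to 1.47]. The central genes, groups 4 to 8, summed to 165 counts in cEpiSC and 449 in mESC (-1.53 [-1.79 to -1.26]). The posterior genes, groups 9 to 13, summed to 297 counts in cEpiSC and 933 in mESC (-1.73 [-1.93 to -1.54]). Within these, the sums of groups 4 (75 counts in cEpiSC and 319 in mESC) and 13 (218 counts in cEpiSC and 658 in mESC) carried most of the counts, and group 12 had 0 counts in cEpiSC and 44 in mESC, all from Hoxc12.

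**Figure D3:**
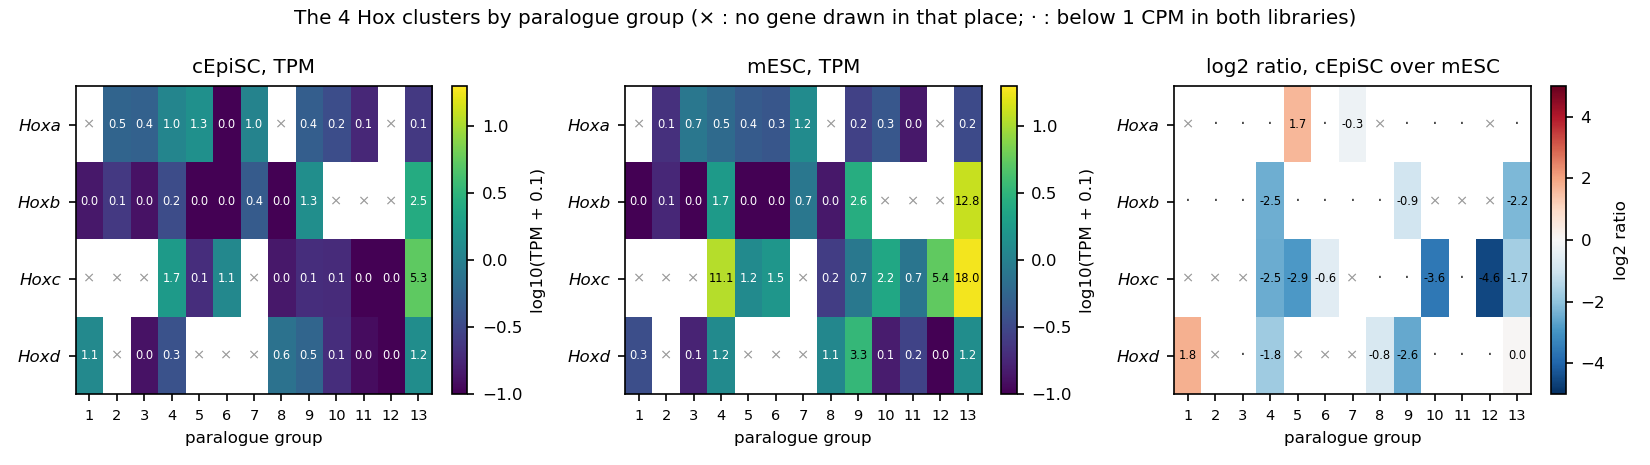
Of the Hox genes, 38 by cluster (rows) and paralogue group (columns), as TPM in cEpiSC (left) and mESC (middle, both on a log10 colour scale with 0.1 added) and as log2 ratio of cEpiSC over mESC for 16 genes past the filter (right). The blue cells are mostly in the Hoxc row, in group 4 and towards group 13, and the red cells are Hoxa5 and Hoxd1.

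Hoxc was the cluster with the most counts in mESC, and all 9 of its genes had a lower CPM in cEpiSC, as did 8134 of all 18032 listed genes. Of the 9, 3 were below the filter, where a few counts set the direction. Hoxc13, a posterior gene known for hair and nail formation, had 145 counts (5.26 TPM) in cEpiSC and 455 counts (18.0 TPM) in mESC, a log2 ratio of -1.72 [-2.01 to -1.46]. Hoxc4, at the other end of the cluster, had 43 counts (1.70 TPM) in cEpiSC and 235 counts (11.1 TPM) in mESC (-2.48 [-3.04 to -2.06]). These are the ends of the cluster, and both were lower. Hoxc12 had 0 counts in cEpiSC and 44 in mESC, which is 15.5-fold lower against a floor of 3 counts in cEpiSC. The upper end of the exact interval of its log2 ratio was -3.60, a smaller difference. Hoxc10 had 2 counts in cEpiSC and 44 in mESC (-3.58 [-7.63 to -2.60]), and Hoxc5 had 3 counts in cEpiSC and 33 in mESC (-2.87 [-5.89 to -1.87]). Hoxc5 and Hoxc10 share exon sequence on the same strand in the GENCODE annotation, so their reads may be split between them. Hoxc6 was the exception past the filter, with 20 counts in cEpiSC and 29 in mESC (-0.57 [-1.52 to 0.25]). Below the filter, Hoxc9 had 2 counts in cEpiSC and 13 in mESC, Hoxc11 had 0 in cEpiSC and 6 in mESC, and Hoxc8 had 1 in cEpiSC and 4 in mESC.

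Most genes beside the Hoxc and Hoxb clusters were within 2-fold. So were most genes past the filter, of which 22.8% were past 2-fold in either direction, so these counts do not set the loci apart. The cluster spans 116 kb of chromosome 15. On one side Calcoco1 had 44.7 CPM in cEpiSC and 35.1 CPM in mESC (0.35), and on the other Smug1, a DNA repair glycosylase, had 20.2 CPM in cEpiSC and 29.9 CPM in mESC (-0.56). Of the 6 nearest listed genes, 3 on each side, 5 were within 2-fold and 1, the activating transcription factor Atf7, was lower, at 17.1 CPM in cEpiSC and 43.9 CPM in mESC (-1.35). Beside the Hoxb cluster, 4 of the 6 nearest listed genes were within 2-fold, while the autophagy receptor Calcoco2 was lower (490 counts in cEpiSC and 3106 in mESC, -2.74) and Skap1 was higher (29 counts in cEpiSC and 1 in mESC, 3.32).

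In the other clusters the lower genes were of groups 4, 9 and 13. Hoxb13, which acts in the tail and prostate, had 36 counts (2.50 TPM) in cEpiSC and 168 counts (12.8 TPM) in mESC (-2.24 [-2.87 to -1.78]). Hoxd9 had 11 counts in cEpiSC and 71 in mESC (-2.56 [-3.84 to -1.85]), and Hoxb4, known from blood stem cells, had 7 counts in cEpiSC and 45 in mESC (-2.45 [-4.16 to -1.61]). Hoxd4 had 8 counts in cEpiSC and 31 in mESC (-1.79 [-3.37 to -0.88]). Those 4 were lower past 2-fold, though the interval of Hoxd4 reaches inside it, and Hoxd4 shares exon sequence on its strand with Hoxd3, which had 1 count in cEpiSC and 2 in mESC. Hoxb9 (39 counts in cEpiSC and 73 in mESC, -0.95) lay just inside 2-fold, and Hoxd8 (12 in cEpiSC and 21 in mESC), Hoxa7 (21 in cEpiSC and 24 in mESC) and Hoxd13 (35 in cEpiSC and 32 in mESC) were within it too.

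Only Hoxa5 and Hoxd1 among the Hox genes past the filter were higher in cEpiSC. Hoxa5, which patterns the neck and lung, had 28 counts in cEpiSC and 7 in mESC (1.67 [0.69 to 3.36]). Hoxd1 had 23 counts in cEpiSC and 5 in mESC (1.77 [0.69 to 3.87]). Both intervals reach inside 2-fold, so counting error alone allows a smaller difference. On the deposited TPM with 1 added, the log2 ratios were 0.78 and 0.74. Among Hoxa genes below the filter, Hoxa4 had 17 counts in cEpiSC and 8 in mESC, Hoxa9 had 14 in cEpiSC and 6 in mESC, and Hoxa2 had 9 in cEpiSC and 2 in mESC, while Hoxa3 had 15 in cEpiSC and 19 in mESC. Hoxa10 was at 6 counts in cEpiSC and 8 in mESC, and Hoxb7 at 5 in cEpiSC and 9 in mESC.

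Among the TALE partners of Hox proteins, Pbx3 and Pbx4 were higher, Pbx2 was within 2-fold and all 3 Meis genes were lower in cEpiSC. Pbx3 had 448 counts in cEpiSC and 164 in mESC (1.36 [1.11 to 1.64]), and Pbx4 had 147 counts in cEpiSC and 56 in mESC (1.28 [0.86 to 1.78]). Their intervals overlap, and that of Pbx4 reaches inside 2-fold. Pbx2 was within 2-fold, with 25.2 TPM in cEpiSC and 32.4 TPM in mESC (-0.31 [-0.45 to -0.17]); it shares exon sequence with Gpsm3, at 121 counts in cEpiSC and 105 in mESC.

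Meis2 had 195 counts (5.37 TPM) in cEpiSC and 551 counts (15.6 TPM) in mESC, a log2 ratio of -1.57 [-1.82 to -1.34]. Meis3 had 7 counts in cEpiSC and 29 in mESC (-1.85 [-3.57 to -0.91]), and Meis1 had 11 in cEpiSC and 24 in mESC (-1.07 [-2.38 to -0.12]). Meis1 and Meis3 passed the filter only through the mESC library, where their levels were higher, and both intervals reach inside 2-fold. Only the ratio of Meis2 rests on more than 30 counts in both libraries. The effective length implied by its counts over FPKM in cEpiSC was 0.942 of that in mESC, relative to the median gene, and 6.35% of 10876 genes with 50 counts or more in both libraries lay more than 5% from that median. In the list of the other TALE proteins, all 5 passed the filter: Mkx was higher (6.79 CPM in cEpiSC and 2.17 CPM in mESC, 1.60), Pknox2, which also pairs with Pbx, was lower (4.69 CPM in cEpiSC and 18.4 CPM in mESC, -1.95), and 3 were within 2-fold, Pknox1 among them.

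Six4, which works with Eya proteins in sense organs, muscle and kidney, was higher in cEpiSC. Six4, at chr12:73099609-73114031 (RefSeq, GRCm38.p6), had 2292 counts (30.6 TPM) in cEpiSC and 623 counts (9.26 TPM) in mESC (1.80 [1.67 to 1.93]), 3.48-fold higher. Its relative Six5, on chromosome 7, had 111 in cEpiSC and 110 in mESC (-0.07 [-0.46 to 0.33]). Six6 had 3 counts in cEpiSC and 0 in mESC, Six2 had 7 in cEpiSC and 3 in mESC, and Six3, a forebrain and eye gene, had 0 in cEpiSC and 1 in mESC. Six2, Six3 and Six6 were thus below the filter in both states.

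None of the known partners of the proteins of Six4 and its relatives was higher past the filter. Of 10 listed co-factors, 6 passed the filter, of which 0 were higher, 2 were lower and 4 were within 2-fold. Of all genes past the filter, 13.6% were higher and 9.25% were lower. Eya1, a phosphatase and co-activator, was at 1.47 CPM in cEpiSC and 20.6 CPM in mESC (-3.72), and the co-repressor Tle3 was at 73.9 CPM in cEpiSC and 207 CPM in mESC (-1.48). Eya3 was the Eya gene with most counts in both libraries (1548 in cEpiSC and 1692 in mESC, -0.21). Eya2 had 17 counts in cEpiSC and 1 in mESC, below the filter.

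Pitx1, the hindlimb and pituitary gene, had 0 counts in cEpiSC and 28 in mESC, 9.87-fold lower against the floor of 3 counts. The upper end of its interval was -2.91, a smaller difference. Pitx3, a lens and midbrain gene, had 7 counts in cEpiSC and 16 in mESC, below the filter.

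Among the Nkx genes, Nkx2-9 and Nkx2-4 were higher, and Nkx1-2, Nkx6-2 and Nkx6-3 were lower. Nkx1-2, a marker of the caudal epiblast, at chr7:132596239-132599637, had the largest log2 ratio of the 43 genes past the filter at a prior count of 2, with 4 counts (0.19 TPM) in cEpiSC and 241 counts (12.3 TPM) in mESC (-5.41 [-7.88 to -4.62]), or 63.7-fold lower. That rank rests on the prior count: at 0.5, Nkx1-2 (-5.82) was behind Hoxc12 (-6.52) and Pitx1 (-5.87), which had 0 counts in cEpiSC. Nkx6-2, a ventral neural tube gene at chr7:139579376-139582797, had the highest level per length of the 99 genes in mESC, with 79 counts (5.53 TPM) in cEpiSC and 728 counts (55.6 TPM) in mESC (-3.25 [-3.64 to -2.95]). Nkx6-3, known from the stomach, had 4 counts in cEpiSC and 49 in mESC (-3.15 [-5.63 to -2.25]). Nkx6-1, the third member of its family, had 0 counts in both. Nkx1-2 overlaps exons of Gm16764 on the opposite strand, so reads of the pair may be mixed. Nkx6-2 overlaps exons of Inpp5a on the opposite strand, and Inpp5a, at 924 counts in cEpiSC and 627 in mESC (0.48), lay on the other side of 0.

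Of the genes flanking Nkx1-2, Lhpp (0.09) and Oat (-0.36) were within 2-fold, Fam53b was lower (-1.84) and Chst15 higher (3.43). Of the genes flanking Nkx6-2, Pwwp2b (0.18) was within 2-fold and Kndc1 (3.05) and Lrrc27 were higher. No flanking gene was lower by as much as Nkx1-2 or Nkx6-2.

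Nkx2-9, an early ventral neural tube gene, had 138 counts (10.03 TPM) in cEpiSC and 24 counts (1.91 TPM) in mESC (2.35 [1.81 to 3.13]). Nkx2-4, expressed in the hypothalamus, had 26 counts in cEpiSC and 4 in mESC (2.16 [1.09 to 4.60]). The 7 Nkx2 genes summed to 178 counts in cEpiSC and 31 in mESC (2.44 [1.88 to 3.04]), of which Nkx2-9 held most. Nkx2-5, the heart gene, had 10 counts in cEpiSC and 2 in mESC, Nkx2-2 had 3 in cEpiSC and 1 in mESC, and Nkx2-3 had 1 in cEpiSC and 0 in mESC.

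The Pax genes were low in both states. Pax6, the eye and forebrain gene, had 33.1 counts (0.77 TPM) in cEpiSC and 2.02 counts (0.06 TPM) in mESC, 15.6-fold higher (3.07 [2.00 to 7.07]); it was the only member with counts that were not whole, as happens where reads are shared among loci. Pax7, of neural crest and muscle stem cells, had 24 counts (0.39 TPM) in cEpiSC and 2 counts (0.04 TPM) in mESC (2.64 [1.49 to 6.63]). Both passed the filter only through the cEpiSC library, and on the deposited TPM with 1 added their log2 ratios were 0.74 (Pax6) and 0.42 (Pax7), within 2-fold. Pax8, of thyroid and kidney, had 89 counts in cEpiSC and 83 in mESC (0.02 [-0.43 to 0.47]), and Pax5, of B cells, had 22 in cEpiSC and 17 in mESC (0.26, an interval that includes 0). Pax9 had 3 counts in cEpiSC and 5 in mESC, Pax2 had 1 in each, and Pax1 had 0 in cEpiSC and 1 in mESC.

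Gbx2, which sets the midbrain-hindbrain boundary and is known as a LIF target in embryonic stem cells, was higher in cEpiSC, where LIF was absent from the induction medium. It had 273 counts (11.4 TPM) in cEpiSC and 102 counts (4.65 TPM) in mESC (1.32 [1.01 to 1.68]). Exons of D130058E05Rik overlap Gbx2 on the opposite strand, so its reads may be mixed in. Gbx1 had 3 counts in each library. In the Irx family, Irx2 had 127 counts in cEpiSC and 195 in mESC (-0.69 [-1.03 to -0.37]) and Irx3 had 27 in cEpiSC and 18 in mESC (0.46 [-0.41 to 1.45]), both within 2-fold. Irx5, below the filter, had 19 counts in cEpiSC and 3 in mESC. Irx2 and Irx3 are neural and limb patterning genes that lie in separate 3-gene clusters.

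The Dlx, Msx, Emx and Isl families were near the floor in both libraries. Dlx3, a gene of placenta and skin, was the only one of their 13 genes past the filter, with 12 counts in cEpiSC and 21 in mESC (-0.79 [-2.05 to 0.20]). Dlx1, a forebrain gene below the filter, had 0 counts in cEpiSC and 6 in mESC, 2.12-fold lower against the floor of 3 counts. The upper end of its interval was -0.32, a smaller difference. Dlx2 had 3 in cEpiSC and 1 in mESC, Dlx4 had 4 in cEpiSC and 3 in mESC, and Dlx6 had 0 in cEpiSC and 1 in mESC. The BMP-responsive Msx genes summed to 15 counts in each library, with Msx1 at 5 in cEpiSC and 10 in mESC, Msx2 at 6 in cEpiSC and 5 in mESC, and Msx3 at 4 in cEpiSC and 0 in mESC. Isl1, of motor neurons and heart, had 4 counts in cEpiSC and 5 in mESC, and Isl2 had 4 in cEpiSC and 6 in mESC. The cortical genes Emx1 and Emx2 had 7 and 1 counts in cEpiSC and 7 and 0 counts in mESC. For the genes of these families other than Dlx1, no difference was detectable at this depth, where a count of 3 equals 0.147 CPM in cEpiSC and 0.155 CPM in mESC. The interval of Dlx1 left out 0, but it rests on 6 counts and makes no allowance for the 13 genes looked at.

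Per length, the leading genes among those described differed between the states. In cEpiSC, Six4 (30.6 TPM) was followed by Pbx2 (25.2), Pbx3 (13.98), Gbx2 (11.4), Pbx4 (11.3) and Nkx2-9 (10.03). In mESC, Nkx6-2 (55.6 TPM) was followed by Pbx2 (32.4), Hoxc13 (18.0), Meis2 (15.6), Hoxb13 (12.8) and Nkx1-2 (12.3). Pbx2 was in both groups of 6, and no Hox gene was in that of cEpiSC.

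The lists of known Hox regulators gave no single direction. Of all genes past the filter, 13.6% were higher, 9.25% were lower and 22.8% were past 2-fold in either direction. All 23 Trithorax and Polycomb genes, which hold Hox clusters on or off, passed the filter: 1 was higher (the Polycomb accessory gene Phf19, 37.1 CPM in cEpiSC and 11.9 CPM in mESC, 1.64), 2 were lower and 20 were within 2-fold, and their median was -0.49. The lower ones were the H3K27 demethylase Kdm6b (41.1 CPM in cEpiSC and 103 CPM in mESC, -1.32) and the H3K4 methyltransferase Kmt2a (29.1 CPM in cEpiSC and 63.4 CPM in mESC, -1.12). The catalytic Polycomb subunit Ezh2 was within 2-fold (-0.26).

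Of the 22 Cdx and retinoic acid genes, 13 passed the filter, of which 6 were higher, 3 lower and 4 within 2-fold. The shares higher and lower were 46.2% and 23.1%, beside 13.6% and 9.25% of all genes past the filter. Cdx1, a homeobox gene that acts upstream of Hox genes in the posterior body, had 19 counts (0.928 CPM) in cEpiSC and 1128 counts (58.3 CPM) in mESC (-5.83). Cdx2 had 0 counts in cEpiSC and 5 in mESC, and Cdx4 had 1 in cEpiSC and 2 in mESC. Several retinoid genes were higher: Stra6, a retinol transporter, had 126 counts in cEpiSC and 3 in mESC (4.61), the binding protein Crabp2 had 164 in cEpiSC and 14 in mESC (3.30), and the receptor Rarg had 5055 in cEpiSC and 1034 in mESC (2.21). Aldh1a2, a main retinoic acid synthesis gene of the embryo, had 8 counts in cEpiSC and 21 in mESC (-1.27).

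Among 21 BMP and hedgehog genes, which act upstream of Msx, Dlx, Nkx and Pax genes, 17 passed the filter: 1 was higher, 6 were lower and 10 within 2-fold, and their median was -0.25. The shares higher and lower were 5.88% and 35.3%, beside 13.6% and 9.25% of all genes past the filter. Smo, the hedgehog signal transducer, was just past 2-fold higher (127 CPM in cEpiSC and 62.6 CPM in mESC, 1.02). The hedgehog targets Hhip (0.293 CPM in cEpiSC and 6.77 CPM in mESC, -4.13) and Gli1 (1.32 CPM in cEpiSC and 6.31 CPM in mESC, -2.17) and the factor Gli2 (-1.82) were lower, and so was the BMP target Id3 (-1.76). Shh itself had 0 counts in both. Of the 10 LIM complex partners of Isl proteins, 8 passed, with 3 higher (Lmo2 3.19, Lmo4 3.15, Ssbp2 1.88), 1 lower (Lmo1, -1.28) and 4 within 2-fold. For these partners the shares higher and lower were 37.5% and 12.5%, beside the same all-gene shares.

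Homeobox genes outside the rule also went both ways: of 108 listed, 49 passed the filter, 13 were higher, 14 were lower and 22 within 2-fold, and their median was -0.67. The shares higher and lower were 26.5% and 28.6%, beside 13.6% and 9.25% of all genes past the filter. The largest ratios were those of Pou3f1 (6.25), Cdx1 (-5.83), the enteric neuron gene Tlx2 (2 counts in cEpiSC and 157 in mESC, -5.37) and Gsc, the organizer gene (6 counts in cEpiSC and 264 in mESC, -5.13).

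Markers of differentiated lineages were mostly low in both libraries. For the counts below, 13.6% of all genes past the filter were higher and 9.25% were lower. The 10 neural markers summed to 66.5 CPM in cEpiSC and 112 CPM in mESC, with 1 of 5 past the filter higher (Sox3) and 2 lower (Tubb3 and Nes), and Neurog1 and Neurog2 at 0 counts in mESC. The 8 mesoderm and streak markers summed to 15.1 CPM in cEpiSC and 33.0 CPM in mESC, with 4 of 5 past the filter lower (Gsc, Tbx5, Mixl1 and T). The 7 endoderm markers summed to 13.1 CPM in cEpiSC and 15.3 CPM in mESC, with 1 of 3 past the filter lower (Gata4), Foxa2 at 0 counts in cEpiSC and Ttr at 0 in both. The 9 neural crest and mesenchyme markers summed to 31.5 CPM in cEpiSC and 33.5 CPM in mESC, and their members went both ways. Of 5 past the filter, 2 were higher (Thy1, 1.98, and Twist1, 1.18) and 1 was lower (Tfap2a, 64 counts in cEpiSC and 346 in mESC, -2.48). Below the filter, Sox10 had 20 counts in cEpiSC and 1 in mESC (2.82), and Prrx1 had 0 in both. The 6 trophoblast markers summed to 44.2 CPM in cEpiSC and 80.3 CPM in mESC, a sum held mostly by Tfap2c (737 counts in cEpiSC and 1516 in mESC, -1.12), the 1 lower gene. The 3 others past the filter were higher: Gcm1 (49 counts in cEpiSC and 0 in mESC), Hand1 (38 in cEpiSC and 3 in mESC) and Ascl2 (80 in cEpiSC and 27 in mESC). Cdx2 was at 0 counts in cEpiSC. The part of such cells in the homeobox differences was not tested.

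Promoter sequences from RefSeq (GRCm38.p6, 250 bases before to 50 after 1 listed start per gene) matched 64 of the 99 genes. The listed start can lie inside the gene. Hoxc4 (plus strand) begins at 103018097 and its window at 103034145. Meis2 (minus strand) reaches to 116067537 and its window to 116064869. The CG counts belong to the listed starts, and other starts were not examined. The following 8 are shown because their genes carry the differences above, and to show their density of CG dinucleotides, printed in capitals, a feature known to go with Polycomb binding at developmental genes. All are given 5′ to 3′ on the gene's strand. The first 4 belong to genes that were lower in cEpiSC and the other 4 to genes that were higher.
Nkx1-2: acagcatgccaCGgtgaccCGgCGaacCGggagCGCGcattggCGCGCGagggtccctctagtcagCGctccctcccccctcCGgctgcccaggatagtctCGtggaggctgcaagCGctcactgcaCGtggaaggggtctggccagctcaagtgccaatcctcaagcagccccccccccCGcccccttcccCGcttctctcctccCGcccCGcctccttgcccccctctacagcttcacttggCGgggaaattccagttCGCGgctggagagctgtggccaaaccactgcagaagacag
Nkx6-2: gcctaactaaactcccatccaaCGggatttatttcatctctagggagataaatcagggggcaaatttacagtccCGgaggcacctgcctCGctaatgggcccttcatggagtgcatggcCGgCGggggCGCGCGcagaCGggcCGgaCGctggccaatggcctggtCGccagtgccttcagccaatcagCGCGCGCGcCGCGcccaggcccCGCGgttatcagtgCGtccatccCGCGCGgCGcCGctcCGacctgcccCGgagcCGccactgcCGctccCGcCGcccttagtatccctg
Hoxc4: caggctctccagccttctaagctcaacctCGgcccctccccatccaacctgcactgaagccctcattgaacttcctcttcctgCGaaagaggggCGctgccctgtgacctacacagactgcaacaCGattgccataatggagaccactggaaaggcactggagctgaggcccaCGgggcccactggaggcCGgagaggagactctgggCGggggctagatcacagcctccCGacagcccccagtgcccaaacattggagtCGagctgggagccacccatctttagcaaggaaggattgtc
Meis2: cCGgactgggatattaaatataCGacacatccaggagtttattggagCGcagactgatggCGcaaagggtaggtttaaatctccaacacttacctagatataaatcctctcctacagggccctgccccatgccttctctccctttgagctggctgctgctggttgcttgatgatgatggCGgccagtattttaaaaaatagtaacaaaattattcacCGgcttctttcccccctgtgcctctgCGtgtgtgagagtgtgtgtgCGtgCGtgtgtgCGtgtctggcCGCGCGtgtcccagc
Six4: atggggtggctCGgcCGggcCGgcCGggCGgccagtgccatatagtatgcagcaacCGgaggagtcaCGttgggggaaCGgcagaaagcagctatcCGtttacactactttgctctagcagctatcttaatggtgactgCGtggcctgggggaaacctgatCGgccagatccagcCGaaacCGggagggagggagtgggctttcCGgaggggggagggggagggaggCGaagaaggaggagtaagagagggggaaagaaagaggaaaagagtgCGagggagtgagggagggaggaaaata
Nkx2-9: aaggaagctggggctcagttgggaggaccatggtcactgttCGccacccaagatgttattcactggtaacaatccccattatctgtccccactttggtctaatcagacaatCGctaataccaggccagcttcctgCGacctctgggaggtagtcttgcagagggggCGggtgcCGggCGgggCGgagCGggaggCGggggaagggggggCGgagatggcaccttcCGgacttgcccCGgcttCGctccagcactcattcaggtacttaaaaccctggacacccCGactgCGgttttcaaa
Gbx2: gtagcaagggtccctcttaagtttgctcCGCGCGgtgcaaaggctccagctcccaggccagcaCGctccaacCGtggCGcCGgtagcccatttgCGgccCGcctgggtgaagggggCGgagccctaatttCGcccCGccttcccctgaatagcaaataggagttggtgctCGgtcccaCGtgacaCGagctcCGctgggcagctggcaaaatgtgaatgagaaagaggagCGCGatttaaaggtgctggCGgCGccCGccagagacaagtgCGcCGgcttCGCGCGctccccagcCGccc
Pbx4: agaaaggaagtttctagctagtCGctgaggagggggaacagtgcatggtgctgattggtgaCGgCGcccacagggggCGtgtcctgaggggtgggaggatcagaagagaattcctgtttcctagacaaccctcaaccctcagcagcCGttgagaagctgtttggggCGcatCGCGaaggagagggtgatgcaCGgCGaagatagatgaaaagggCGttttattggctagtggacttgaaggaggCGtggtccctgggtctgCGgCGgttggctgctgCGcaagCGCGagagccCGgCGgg

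The counts of CG in these windows were 21 in Nkx1-2 (chr7:132599588-132599887, minus strand), 32 in Nkx6-2 (chr7:139582748-139583047, minus), 9 in Hoxc4 (chr15:103034145-103034444, plus) and 13 in Meis2 (chr2:116064570-116064869, minus). They were 16 in Six4 (chr12:73113196-73113495, minus), 15 in Nkx2-9 (chr12:56613235-56613534, minus), 27 in Gbx2 (chr1:89931127-89931426, minus) and 19 in Pbx4 (chr8:69832374-69832673, plus). The median was 20 over the 64 homeobox genes, against 17 over the 14117 listed genes with a promoter. It was 19 for 9 higher genes, 15 for 9 lower genes, 17 for 9 genes within 2-fold and 20 for 37 genes below the filter, and the ranges of these groups overlapped (15 to 38 in higher genes, 4 to 32 in lower genes).

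On either strand, TTTATG, a Cdx-type motif, stood in 8 of the 64 homeobox windows (12.5%) and in 7.39% of all windows of that length. Of those 8, 6 belonged to genes below the filter, 1 to a lower gene, 1 to a gene within 2-fold and 0 to higher genes. TATAAA, the TATA box, stood in 7.81% of the homeobox windows and 8.93% of all, ATCAAAG, a TCF/LEF motif, in 1.56% and 2.71%, and TAATCC, a bicoid-type motif, in 1.56% and 6.04%. The octamer ATGCAAAT stood in none of the 64 and in 1.49% of all. Of the 8 windows shown, only that of Meis2 held any of these 5 motifs, 1 TATAAA. Each match is a run of letters and not a bound site.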

How the data were processed

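RNA of 1 cEpiSC and 1 mESC library was sequenced as paired reads after oligo(dT) capture, random priming and dUTP second-strand synthesis, per the labels' protocols. The tools were HISAT2, Bowtie2, RSEM 1.3.1 and DESeq2 1.34.0 per the submitters' processing notes, which give, as mouse build, GRCm38.p6. Which tool did what, with which annotation and filters, is not given in the sources used here, nor whether counting used strand, so reads of antisense genes may be mixed in. Of the 43 members past the filter, 14 share exons with another gene of the GENCODE annotation.

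The deposited table has a read count, a TPM and an FPKM column per library (per the file headers). The read counts deposited by the authors are of the kind called estimated counts, since 11.9% of genes in cEpiSC and 11.3% in mESC lie more than 0.005 from a whole number. The TPM values, scaled per length and library, and the FPKM values, scaled per length and fragment total, are the authors' own. Columns of samples outside this series numbered 0.

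Estimated counts were rounded and scaled by TMM with edgeR 4.0.16 (R 4.3.3), with factors of 1.03 for cEpiSC and 0.975 for mESC. Log2 ratios used a prior count of 2 over all genes that reached 1 CPM in either library. Fold values and exact conditional (Clopper-Pearson) 95% intervals, from scipy 1.17.1, are without the prior. For a gene at 0, the floor was 3 counts in that library. With 1 library per state no test was possible, and each ratio describes these libraries, not the conditions. The steps were tested on simulated data.

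Every member past the filter is named, except 5 that are not reported here. From each regulator list, up to 4 genes past 2-fold with the largest ratios are named, and other list genes were named after their values were seen. The members and lists were chosen with earlier results of these data known. Coordinates and promoters are those of RefSeq on GRCm38.p6. Alternatives tried were DESeq2 1.42.0 size factors, library totals, other filters and prior counts, TPM and FPKM with a pseudocount of 1, and an interval wholly beyond 2-fold.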

Additional observations from a re-analysis of the deposited data

How the results depend on the processing

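No homeobox gene called higher or lower changed sign under any alternative run. Of 319 ratios of the 43 genes past the filter, 278 stayed inside their counting interval and 41 left it. The 278 include the ratios under the other filters. A filter does not change a ratio, so those could not leave their interval. Six5 (library totals and FPKM) and Pax8 (TPM), both within 2-fold, crossed 0. With 14 higher and 16 lower as the reported counts, a filter of 5 CPM left 8 higher and 6 lower, because 25 of the 43 genes lie under it. TPM with a pseudocount of 1 gave 8 higher and also fewer than 16 lower. FPKM gave 7 higher and 9 lower. A pseudocount shrinks the ratios of low genes. Among the genes within 2-fold by TPM were Pax6 (0.74), Pax7 (0.42), Hoxc5 (-0.97), Hoxd4 (-0.75), Meis1 (-0.32) and Meis3 (-0.94), and by FPKM also Hoxb4 (-0.75), Nkx2-4 (0.79), Nkx6-3 (-0.98) and Pitx1 (-0.70). Over all genes, the higher count of 1796 was 2714 with no filter, 970 at 5 CPM, 1091 by TPM and 945 by FPKM, and the lower count of 1225 was 680 by FPKM. Under the settings other than 5 CPM, TPM and FPKM, the member counts were 10 to 19 higher and 13 to 23 lower. Hoxa5, Hoxd1, Hoxd4, Meis1, Meis3 and Pbx4 have intervals that reach inside 2-fold, and Meis1 was also within 2-fold at a prior count of 5 (-0.92). No scaling moved the median of all genes by over 0.1 on the log2 scale. No paired analysis was possible because each state has 1 library, and leaving out a library was not possible for that reason. Depth limits the low genes: the median half-width of the intervals of these genes was 0.89 on the log2 scale.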
